A study of Rattus norvegicus with 9 samples.

Results

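The comparison set myocardium from infarcted rats given dapagliflozin (DAPA) against myocardium from sham-operated rats, to describe which gene programmes remained away from the sham level under treatment and which did not. DAPA inhibits the sodium-glucose cotransporter SGLT2 and is given for diabetes and heart failure. The 3 samples labelled as DAPA from the first day and the 3 Sham samples were taken, 6 of the 9 samples in the series, and the 3 untreated MI samples served only for values set alongside. All genes with a name in the deposited expression table were members. They numbered 32883 of 35843 table entries, and 12441 of them were expressed highly enough to be tested.

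Adult male Sprague-Dawley rats had the left anterior descending artery tied off (MI and MI + DAPA (1st d)) or a sham operation. DAPA was given by daily gavage from the first day after surgery, Sham and MI rats received saline in the same way, and hearts were collected on day 28. The paper states that its molecular work mainly used infarct border with the scar removed, and the corresponding place in Sham. For the sequencing it names left ventricle and infarct myocardium, so the exact site, and whether scar was included, is not settled. The labels name 3 biological replicates per group, and each title names a pair of tubes without saying whether they came from 1 heart, so the spread between samples may be partly technical. No sham-operated group given DAPA was analysed here, so infarct and drug cannot be told apart in this comparison.

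After an infarct, surviving cardiomyocytes of the border zone carry extra load and return to genes used in the fetal heart, such as the natriuretic peptides and the slow β-myosin heavy chain. Fibroblasts lay down collagen and matricellular proteins, macrophages clear debris and remain in the scar edge, and capillaries are lost or rebuilt. Cardiomyocyte energy supply rests on mitochondria, whose respiratory chain combines a few subunits encoded by the mitochondrial genome with many encoded in the nucleus.

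The libraries held between 13597239 and 17210909 reads counted to genes. Genes of the mitochondrial genome took 61.1%, 61.6% and 66.9% of the reads in the 3 Sham samples and 27.2%, 32.0% and 17.5% in the DAPA samples. The groups did not overlap and the difference of means was -37.6 percentage points (exact permutation test, two-sided p = 0.1, the smallest that 3 against 3 samples can give). Reads left for all other genes therefore ran from 5702454 to 6570698 in Sham and from 11440726 to 12082280 under DAPA. The deposited values (FPKM, fragments scaled for gene length and library size) were already scaled so that the typical gene was level between libraries, and the median gene differed from Sham by 0.01 on the log2 scale. Scaling each library to the same FPKM total instead moved the median gene up by 0.99 on the log2 scale and turned 1168 higher and 1000 lower calls into 6641 and 152. Every change below is therefore relative to the median gene of the same libraries.

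Markers of the main cardiac cell types were read in both groups, which does not tell border from scar or ventricle from atrium. All 6 cardiomyocyte markers, all 4 fibroblast markers, both endothelial markers found and all 3 smooth muscle markers exceeded 1 FPKM in every Sham and every DAPA sample. None of the T cell markers Cd3e and Cd3d or the adipocyte markers Adipoq, Plin1 and Cidec did so in all samples of either group. All 3 atrial markers exceeded 1 FPKM in every DAPA sample, and 2 of them in every Sham sample. The plasma cell marker Jchain did so in every DAPA sample but not in every Sham sample. In bulk tissue, fewer cells of a type and less RNA per cell cannot be told apart, which holds for every result below.

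Of 13359 genes tested with limma, 1168 (8.74%) were higher and 1000 (7.49%) lower in MI + DAPA (1st d) than in Sham, at an adjusted p under 0.05 and a change of more than 2-fold. For 6265 genes (46.9%) the 95% confidence interval of the change lay wholly within 2-fold of Sham, and the remaining 4926 were in neither class. In MI against the same Sham samples 11.5% of genes were higher and 9.93% lower. DAPA against MI gave no called gene (0% of 13251), where limma at an unadjusted p under 0.05 gave 126 genes higher and 147 lower and voom on recovered reads gave 0, so no difference between the DAPA and MI values below was called. MI values share their Sham samples with the DAPA values and stand beside them for context. A DAPA sample differed by more than 2-fold from the mean of Sham in 17.8% to 22.4% of tested genes. A Sham sample differed by as much from the mean of the other Sham samples in 4.98% to 6.85%.

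**Figure D1:**
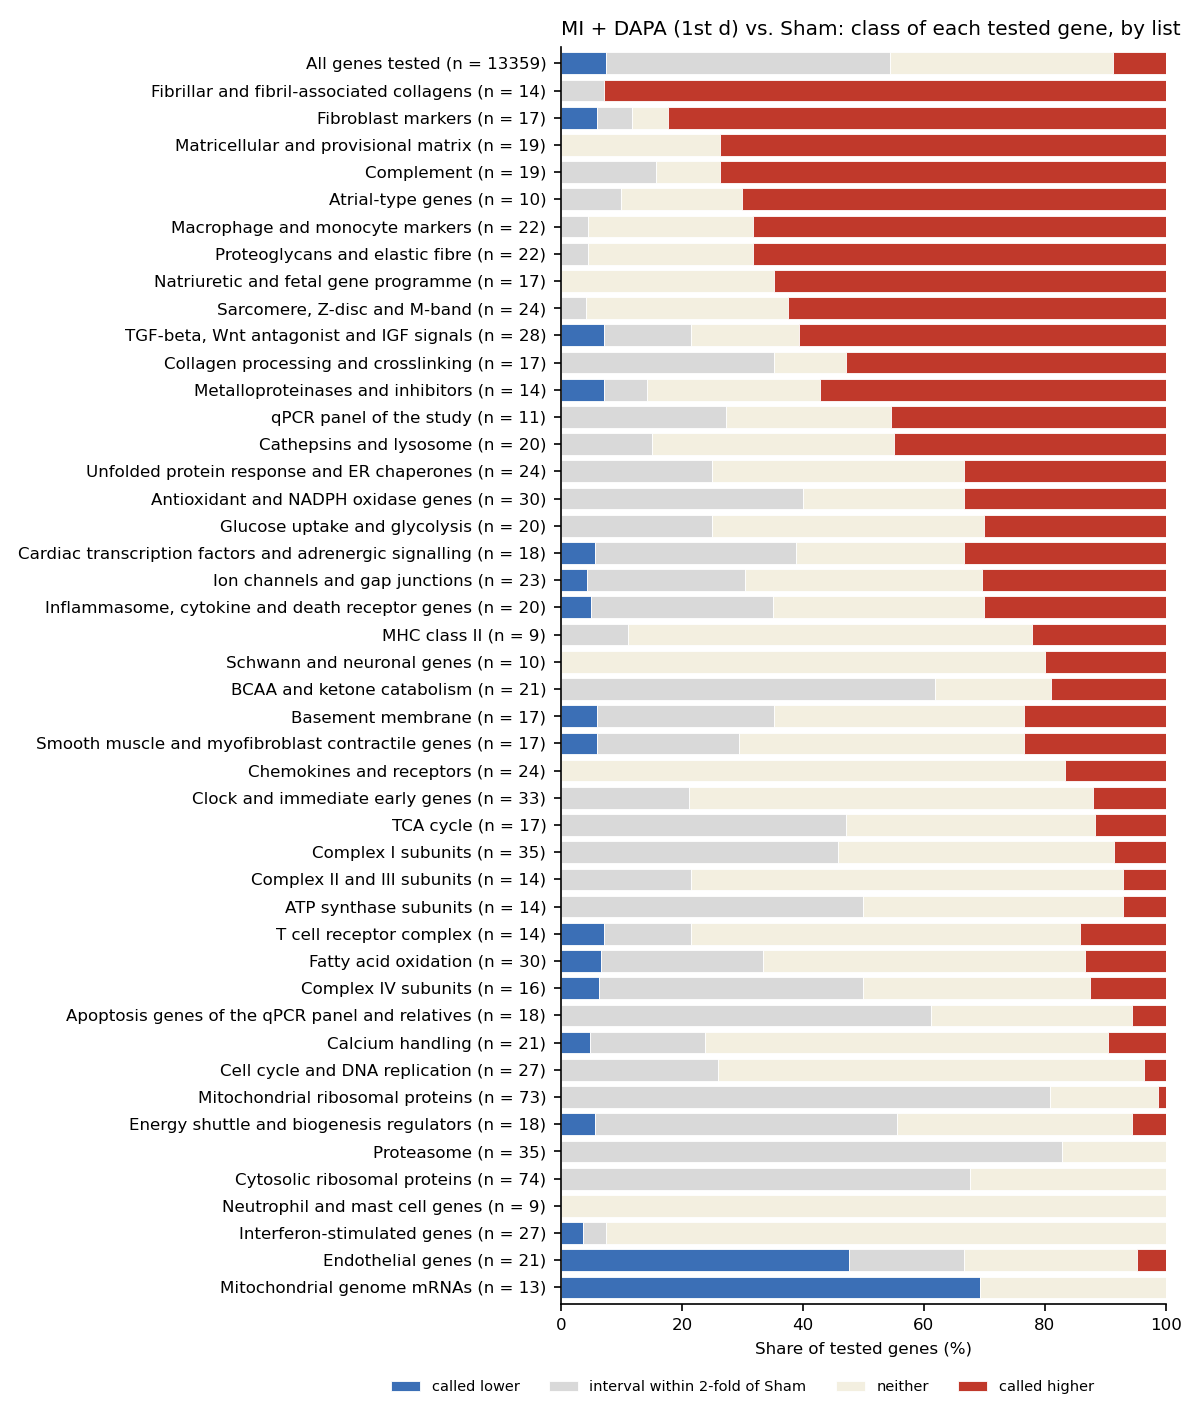
Share of tested genes in 4 classes for each gene list with at least 9 tested genes, in MI + DAPA (1st d) against Sham; n is the number of tested genes in the list and the top bar holds all 13359. Collagens, fibroblast markers, matricellular genes and complement have the most genes called higher, mitochondrial genome mRNAs and endothelial genes the most called lower, and proteasome and ribosomal proteins lie mainly within 2-fold.

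The fetal and natriuretic programme stood far above Sham. Of its 19 genes 17 were tested, 11 were higher and none lower, with a median log2 fold change of 2.33 against 0.01 over all genes tested, and 1 of the 17 passed the low-value filter (1 FPKM in 3 samples) through the DAPA samples alone. Nppa, which encodes atrial natriuretic peptide, was at 199.7, 96.5 and 65.9 FPKM in the Sham samples and at 6493, 8659.6 and 4154 FPKM in the DAPA samples. Every DAPA sample was far above every Sham sample, and the log2 fold change was 5.81 ± 0.44 (SE; adjusted p = 0.00136). Nppb, which encodes B-type natriuretic peptide, a clinical marker of wall stress, was at 69.1, 64.3 and 58.97 FPKM in Sham and 965, 769.9 and 543 FPKM under DAPA. The Sham values lay close together, the groups did not overlap, and the log2 fold change was 3.51 ± 0.23 (adjusted p = 0.00136).

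Acta1 (skeletal α-actin), named after its values were seen, read 129, 57.6 and 66.9 FPKM in Sham and 2509, 1109 and 574 FPKM under DAPA, a log2 fold change of 3.86 ± 0.54 (adjusted p = 0.00343). Among its DAPA samples replicate 1 was the highest, and none reached down to Sham. Myh7, the slow β-myosin heavy chain, was at 58.9, 72.8 and 71.3 FPKM in Sham and 533, 591 and 329 FPKM under DAPA, with a log2 fold change of 2.78 ± 0.25 (adjusted p = 0.00156). Its counterpart Myh6, the fast α-myosin heavy chain of the adult rodent heart, pointed the other way at 174, 321 and 329 FPKM in Sham and 72.03, 237 and 101 FPKM under DAPA. The Myh6 groups overlapped and it was not called (log2 fold change -1.13 ± 0.45, adjusted p = 0.0995), and the fold change in MI was -2.43. Without DAPA replicate 2, the highest of its group, Myh6 was called lower (-1.62, adjusted p = 0.0171).

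The proximal promoters of 3 genes that stood high together are shown because they hold short motifs known from muscle genes; Nppb and Acta1 belong to the fetal list and Ankrd23 to the largest rises. The sequences are from RefSeq (GRCr8), written 5′ to 3′ on the strand of the gene and ending at its outermost annotated start, with motif matches in capitals. The M-CAT element was searched as CATTCC on both strands. The TATA box was searched as TATAAA on the strand of the gene, the GATA site as AGATAA on both strands, and the CArG box by its usual consensus.
Nppb, chr5:163699758-163699954, plus strand: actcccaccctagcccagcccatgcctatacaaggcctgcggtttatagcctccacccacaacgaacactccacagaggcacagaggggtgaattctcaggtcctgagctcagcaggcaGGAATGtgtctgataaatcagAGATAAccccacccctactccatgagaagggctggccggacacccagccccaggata
Acta1, chr19:68784195-68784444, minus strand: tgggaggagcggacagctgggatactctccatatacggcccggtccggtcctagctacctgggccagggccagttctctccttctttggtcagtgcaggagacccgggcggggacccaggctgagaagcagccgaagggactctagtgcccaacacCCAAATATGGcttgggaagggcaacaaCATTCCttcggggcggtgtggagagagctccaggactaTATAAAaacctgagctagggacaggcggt
Ankrd23, chr9:46274579-46274760, minus strand: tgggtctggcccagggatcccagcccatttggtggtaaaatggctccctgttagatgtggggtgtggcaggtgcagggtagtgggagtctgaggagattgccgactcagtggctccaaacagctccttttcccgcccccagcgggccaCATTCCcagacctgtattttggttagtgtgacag
In Nppb the M-CAT match began 78 bases and the GATA match 57 bases before the start. Acta1 held a CArG box at 94, an M-CAT match at 67 and a TATA match at 29 bases, and Ankrd23 held an M-CAT match at 34 bases. In windows of 250 bases, M-CAT occurred in 11.8%, TATA in 8.38% and the CArG box in 1.5% of 27457 rat promoters, and GATA in 2759 of them. Promoters were found for 17 of the 19 genes of the fetal list, of which 2 held M-CAT, 5 TATA, 2 GATA and 2 a CArG box. The share with M-CAT was thus about the 11.8% of all rat promoters, and that with GATA was also near its share of all promoters. TATA and the CArG box were more frequent in the list than in all promoters, on 5 and 2 genes, and these differences were not tested. The 3 promoters shown were chosen for their matches and do not stand for the list. These matches describe letters in the window and no binding was measured. Ankrd23, a stretch-responsive titin-binding protein, was itself at 5.68, 2.45 and 2.94 FPKM in Sham and 134, 56.6 and 61.7 FPKM under DAPA (log2 fold change 4.13 ± 0.38, adjusted p = 0.00159).

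Genes typical of atrial muscle were also above Sham, 7 of 10 tested being higher and none lower; Nppa, Myl4 and Myl7 stand in both lists. Myl4, the atrial essential light chain, read 0.721, 21.9 and 3.29 FPKM in Sham and 59.1, 109 and 49.99 FPKM under DAPA (log2 fold change 3.65 ± 0.84, adjusted p = 0.0173), and its call was lost without Sham replicate 3 (adjusted p = 0.0543) or DAPA replicate 1 (0.0507). Myl7, the atrial regulatory light chain, was at 1.20, 3.59 and 1.82 FPKM in Sham and 17.4, 17.7 and 9.56 FPKM under DAPA (log2 fold change 2.33 ± 0.33, adjusted p = 0.0038). Both light chains are also fetal genes of the ventricle. Whether atrial tissue was present in the samples was not tested.

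Sarcomere genes were also above Sham. Among 24 tested genes of the sarcomere, Z-disc and M-band, 15 were higher, none lower and 1 lay within 2-fold, with a median log2 fold change of 1.27. Actc1, cardiac α-actin, was at 598, 516 and 785 FPKM in Sham and 3238, 3296 and 1756 FPKM under DAPA (log2 fold change 2.09 ± 0.32, adjusted p = 0.00486). Des, the muscle intermediate filament desmin, was at 207, 106 and 183 FPKM in Sham and 1466, 991 and 579 FPKM under DAPA (log2 fold change 2.56 ± 0.39, adjusted p = 0.00451). Xirp2, an intercalated disc protein, read 6.54, 4.28 and 5.38 FPKM in Sham and 116, 59.1 and 39.2 FPKM under DAPA (log2 fold change 3.37 ± 0.37, adjusted p = 0.002). In all 3 of these genes the groups were apart, and DAPA replicate 3 was the lowest DAPA sample.

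The sarcomere list did not move as one. Tnni3, cardiac troponin I, and Tnnt2, cardiac troponin T, were the most abundant members not called. Tnni3 was at 2359.5, 3811 and 3767 FPKM in Sham and 2204, 2787 and 1130.1 FPKM under DAPA (log2 fold change -0.76 ± 0.41, adjusted p = 0.198). Tnnt2 was at 2007, 2155 and 2685 FPKM in Sham and 4410.2, 4014 and 1890.3 FPKM under DAPA (log2 fold change 0.51 ± 0.38, adjusted p = 0.356). The 2 groups overlapped for both troponins. Against the same Sham samples the median of the list was 0.07 in MI, with 4 genes higher and 4 lower. In all 24 genes the log2 fold change against Sham was larger for DAPA than for MI, but 0 of them was called between DAPA and MI. The median of DAPA against MI was 1.13 in the list and -0.02 over all genes. These genes come from the same few samples, and the list mean of log2(FPKM + 1) was 6.84, 5.55 and 7.70 in the MI samples. Without DAPA replicate 1 the count of 15 was 10.

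**Figure D2:**
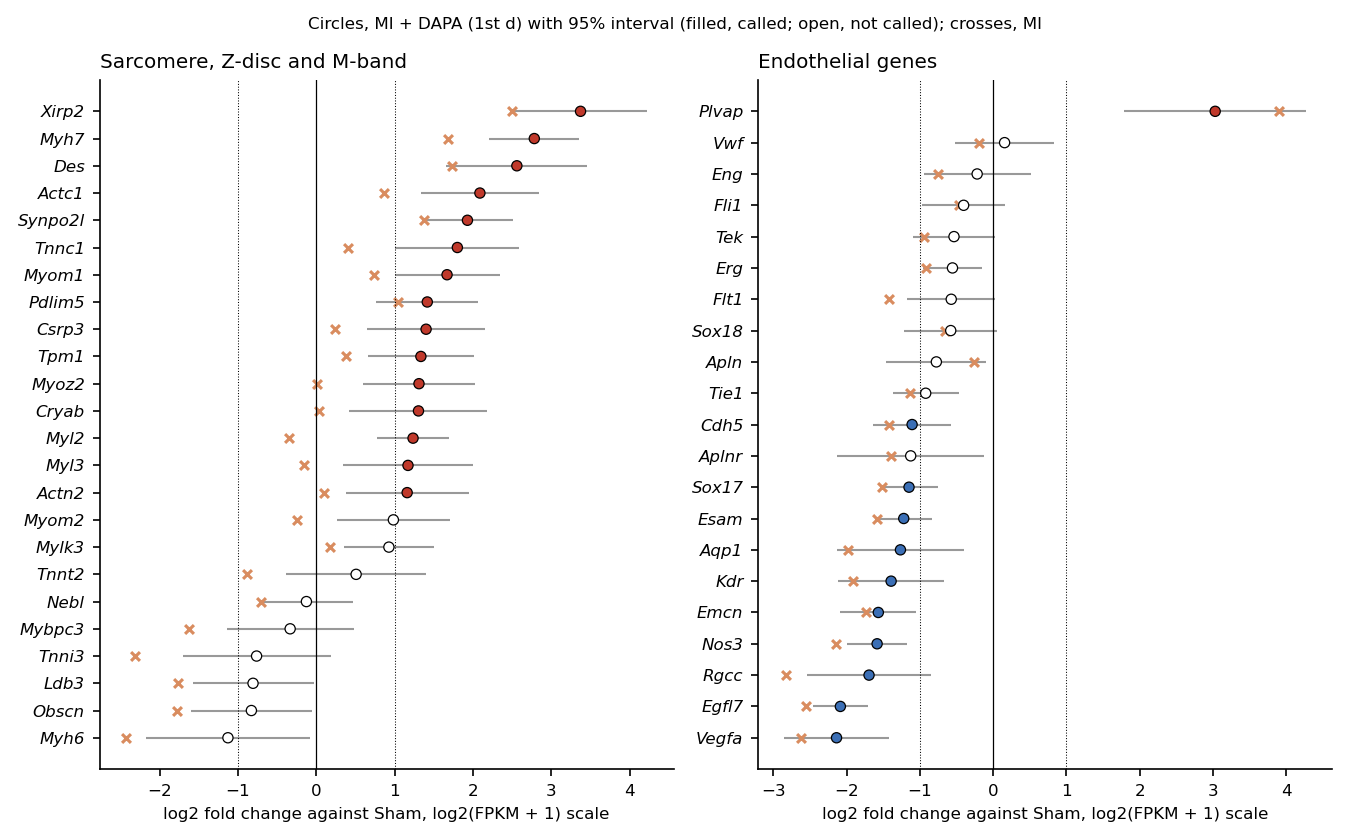
Log2 fold change against Sham on the log2(FPKM + 1) scale for tested sarcomere genes (left, 24) and endothelial genes (right, 21); circles are MI + DAPA (1st d) with the 95% limma interval, filled when called, crosses are MI against the same Sham samples, and dotted lines mark 2-fold. Of the sarcomere genes 15 are called higher; of the endothelial genes 10 are called lower and Plvap alone is called higher.

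Other cardiomyocyte genes were mixed. Over all genes tested 8.74% were higher, 7.49% lower and 46.9% within 2-fold. Cardiac transcription factors and adrenergic genes had 6 of 18 higher (33.3%) and 1 lower (5.56%), and 3 higher without DAPA replicate 1. Nkx2-5, a core cardiac transcription factor, was at 10.9, 8.91 and 4.39 FPKM in Sham and 49.9, 47.4 and 29.4 FPKM under DAPA (log2 fold change 2.29 ± 0.33, adjusted p = 0.00385). Its groups did not overlap. Ion channels and gap junctions had 7 of 23 higher (30.4%, and 4 genes without DAPA replicate 1) and 1 lower (4.35%). Atp1b1, a β subunit of the sodium pump, was among those higher, at a log2 fold change of 1.79 ± 0.16. The gap junction gene Gja1 stayed within 2-fold (0.26 ± 0.18). Calcium handling genes gave 2 of 21 higher (9.52%), 1 lower (4.76%) and 4 within 2-fold (19.0%). Their share of higher calls was near that of all genes, and Pln, phospholamban, was not called (0.71 ± 0.32, adjusted p = 0.134).

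Collagen genes had the largest share of higher calls among the lists with at least 9 tested genes. Of 14 tested fibrillar and fibril-associated collagen genes 13 were higher, with a median log2 fold change of 2.20, and 1 of the 14 passed the filter through the DAPA samples alone. Col1a1, the α1 chain of collagen I, was at 49.00, 13.7 and 14.3 FPKM in Sham and 312, 441 and 602 FPKM under DAPA (log2 fold change 4.28 ± 0.48, adjusted p = 0.00219). Sham replicate 1 was the highest Sham sample and still lay far below every DAPA sample. Col3a1, the collagen III chain, was at 189.7, 109 and 76.02 FPKM in Sham and 789.7, 1353 and 2074 FPKM under DAPA (log2 fold change 3.48 ± 0.43, adjusted p = 0.0027). Col5a3, a minor collagen V chain, was the exception and lay within 2-fold at -0.08 ± 0.39.

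Matricellular genes, whose products sit in the matrix and modulate cells, were higher in 14 of 19 tested, with none lower. Ccn5 had 5.93, 0.701 and 1.82 FPKM in Sham and 204, 79.5 and 152 FPKM under DAPA (log2 fold change 5.41 ± 0.53, adjusted p = 0.0017). Postn, periostin, a product of activated fibroblasts, read 27.4, 2.38 and 1.16 FPKM in Sham and 139, 96.4 and 95.9 FPKM under DAPA (log2 fold change 4.21 ± 0.85, adjusted p = 0.0111). Sham replicate 1 was again the highest of its group for both. Sparc, an abundant collagen-binding protein, did not follow, at 1538, 1342 and 1394 FPKM in Sham and 1163, 2148 and 2231 FPKM under DAPA, with overlapping groups (0.32 ± 0.31, adjusted p = 0.479).

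In the remaining matrix lists higher calls also outnumbered lower ones. Proteoglycans and elastic fibre genes had 15 of 22 higher and none lower, 1 of the 22 having passed the filter through the DAPA samples alone, among them Fbln1 (3.40 ± 0.36) and the proteoglycan Vcan (2.42 ± 0.23). Collagen processing and crosslinking gave 9 of 17 higher and 6 within 2-fold. Loxl1, a lysyl oxidase, was at 3.05 ± 0.40, while the crosslinking transglutaminase Tgm2 stayed within 2-fold at 0.26 ± 0.24. Metalloproteinases and their inhibitors had 8 of 14 higher and 1 lower, with the inhibitors Timp2 at 2.37 and Timp3 at 1.72. Basement membrane genes gave 4 of 17 higher and 1 lower. Lamb2, the laminin β2 chain, lay within 2-fold at -0.54 ± 0.17.

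Signals that act on matrix-producing cells were mostly higher as well, with 17 of 28 tested genes of the TGF-β, Wnt antagonist and IGF list higher and 2 lower. Of the 28, 2 passed the filter through the DAPA samples alone. Dkk3, a secreted protein of the Dickkopf family also abundant in atria, had the smallest adjusted p of all genes tested (0.000556), at 5.32, 5.23 and 4.24 FPKM in Sham and 52.01, 58.8 and 56.5 FPKM under DAPA (log2 fold change 3.26 ± 0.15). The ligand Tgfb1 itself was not called (0.61 ± 0.22, adjusted p = 0.0798).

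Of 17 tested fibroblast markers 14 were higher and 1 lower. Pdgfra, a receptor that marks resident cardiac fibroblasts, was at 6.85, 5.22 and 5.63 FPKM in Sham and 23.5, 33.2 and 49.9 FPKM under DAPA (log2 fold change 2.35 ± 0.27, adjusted p = 0.00219). Wt1, a transcription factor of epicardium and activated endothelium, was the member that fell, from 37.9, 32.4 and 37.5 FPKM to 9.23, 13.5 and 8.61 FPKM (log2 fold change -1.71 ± 0.20, adjusted p = 0.00219). Wt1 moved against the rest of its list, with groups that did not overlap. Contractile genes of smooth muscle and myofibroblasts did not rise as a group, with 4 of 17 higher, 1 lower and a median of -0.06. Acta2, smooth muscle α-actin, was at 513, 118 and 437 FPKM in Sham and 261, 161 and 253 FPKM under DAPA (log2 fold change -0.44 ± 0.53, adjusted p = 0.57). The DAPA values lay inside the Sham range, whose replicate 2 was the lowest sample for Acta2, Tagln and Myh11. Without that sample 5 of the 17 contractile genes were lower in place of 1, and Acta2 was called lower (-1.10, adjusted p = 0.0369).

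Macrophage genes also remained above Sham, 15 of 22 tested being higher, none lower and 1 within 2-fold, with a median of 1.69. Lyz2, lysozyme, was at 283, 90.8 and 60.02 FPKM in Sham and 963, 642 and 1044 FPKM under DAPA (log2 fold change 2.89 ± 0.53, adjusted p = 0.00817). Csf1r, the receptor macrophages need to survive, was at 16.4, 8.27 and 6.56 FPKM in Sham and 36.7, 27.5 and 56.8 FPKM under DAPA (log2 fold change 1.89 ± 0.36, adjusted p = 0.00959). Gpnmb, a gene of lipid-laden and scar macrophages, was at 16.2, 2.07 and 0.788 FPKM in Sham and 122, 56.5 and 77.8 FPKM under DAPA (log2 fold change 4.17 ± 0.76, adjusted p = 0.00813). In all 3 genes Sham replicate 1 was the highest Sham sample. The count of 15 fell to 7 without Sham replicate 3, DAPA replicate 1 or DAPA replicate 3, and to 8 without Sham replicate 2.

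Complement genes, many of them made by macrophages and fibroblasts, were higher in 14 of 19 tested and lower in none, with a median of 1.83 and 2 genes that passed the filter through the DAPA samples alone. C7, a component of the membrane attack complex, was at 33.7, 38.5 and 17.4 FPKM in Sham and 337, 333 and 808 FPKM under DAPA (log2 fold change 3.94 ± 0.42, adjusted p = 0.00195). C1qb, a chain of the recognition protein C1q, was at 36.97, 21.6 and 21.1 FPKM in Sham and 121, 108 and 203 FPKM under DAPA (log2 fold change 2.39 ± 0.30, adjusted p = 0.0028). The groups were well apart for both. Cd59, which protects cells from complement, stayed within 2-fold at 0.04 ± 0.23. Cathepsin and lysosome genes gave 9 of 20 higher and none lower, with Ctsk, the collagen-degrading cathepsin K, at 2.73 ± 0.24. Genes of the unfolded protein response had 8 of 24 higher and none lower (4 higher without DAPA replicate 1, 5 without Sham replicate 2), with the chaperone Hspa5 at 1.35 ± 0.23 and the transcription factor Atf4 within 2-fold at 0.20 ± 0.22.

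Lymphocyte and antigen presentation lists held few testable genes, and their calls moved with single samples. Of 9 tested MHC class II genes 2 (22.2%, against 8.74% of all genes) were higher, 1 lay within 2-fold and 6 were in neither class. Cd74, the invariant chain of MHC class II, was at 260.3, 98.5 and 99.7 FPKM in Sham and 316, 422 and 417 FPKM under DAPA (log2 fold change 1.47 ± 0.38, adjusted p = 0.0247). In MI it was at 650.4, 1618 and 1002 FPKM. The Cd74 groups did not overlap, but its call was lost on leaving out any of the 5 samples other than Sham replicate 1 (adjusted p from 0.0548 to 0.0818), and the count of 2 then fell to 0. Without Sham replicate 1, the highest Sham sample for Cd74, 4 of 7 tested MHC class II genes were higher. The T cell list gave 2 of 14 higher (14.3%), 1 lower (7.14%, against 7.49% of all genes) and a median of -0.13. In that list 10 of 24 genes were below the filter. Cd3e, a chain of the T cell receptor complex, was at 0.191, 1.36 and 0.0758 FPKM in Sham, 0.404, 1.29 and 1.11 FPKM under DAPA and 1.69, 19.5 and 4.70 FPKM in MI, and the log2 fold change of DAPA against Sham was 0.39 ± 0.38 (adjusted p = 0.485). The member with the largest rise was Cd4 (3.40 ± 0.44), a coreceptor that rat macrophages also carry. Only 3 of 17 B cell and plasma cell genes passed the filter, and 1 was called. This was Jchain, the joining chain of secreted antibodies, at 0.796, 3.45 and 1.42 FPKM in Sham, 5.05, 7.39 and 8.87 FPKM under DAPA and 23.9, 2881 and 503 FPKM in MI. The log2 fold change of DAPA against Sham was 1.57 ± 0.36 (adjusted p = 0.017), and the call was lost without Sham replicate 3 or DAPA replicate 3 (adjusted p = 0.0527 and 0.0562).

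Chemokines and their receptors had 4 of 24 tested genes higher (16.7%, against 8.74% of all genes), none lower and none within 2-fold. Without Sham replicate 3 the count of 4 was 2. Ccl19, a chemokine that guides T cells and dendritic cells, was at 10.5, 10.5 and 5.07 FPKM in Sham and 65.1, 35.4 and 30.3 FPKM under DAPA (log2 fold change 2.18 ± 0.35, adjusted p = 0.00543). Inflammasome, cytokine and death receptor genes gave 6 of 20 higher (2 without DAPA replicate 1) and 1 lower. Casp1, the inflammasome protease, changed by less than 2-fold (-0.69 ± 0.21, adjusted p = 0.0449).

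Interferon-stimulated genes were split by sample. Of the 27 tested, 25 in DAPA replicate 1 and 24 in DAPA replicate 2 were below the lowest Sham sample, and in DAPA replicate 3 there were 25 above the highest Sham sample. Over all 13359 genes tested, 4770 and 4491 were below in DAPA replicates 1 and 2, and 4859 were above in DAPA replicate 3. Irf7, a transcription factor of the interferon response, was at 113, 84.1 and 85.2 FPKM in Sham and 24.7, 20.4 and 604 FPKM under DAPA. Mx1, an antiviral GTPase, was at 8.45, 9.31 and 8.15 FPKM in Sham and 3.91, 4.92 and 188 FPKM under DAPA. The mean of the 3 DAPA samples therefore stands for none of them in these genes, both named after their values were seen. Ifit1, an interferon-induced antiviral protein, was the member called, at 36.1, 14.6 and 16.7 FPKM in Sham and 4.89, 0.0903 and 0.0267 FPKM under DAPA (log2 fold change -3.54 ± 0.68, adjusted p = 0.00951), and here replicate 3 was the lowest of all. The other gene in which replicate 3 did not exceed Sham was Ifi27. Without DAPA replicate 3, 14 of the genes were lower than in Sham in place of 1.

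Of the nuclear lists with at least 9 tested genes, the endothelial list had the largest share of lower calls, with 10 of 21 tested lower, 1 higher and 4 within 2-fold, and a median of -1.11. Egfl7, a secreted endothelial protein, was at 482, 549 and 484 FPKM in Sham and 111, 123 and 120.4 FPKM under DAPA (log2 fold change -2.09 ± 0.16, adjusted p = 0.00136). Nos3, endothelial nitric oxide synthase, was at 56.5, 53.4 and 70.6 FPKM in Sham and 16.7, 22.1 and 19.3 FPKM under DAPA (log2 fold change -1.59 ± 0.18, adjusted p = 0.00217). Kdr, the main receptor for VEGF, was at 73.9, 35.6 and 68.8 FPKM in Sham and 23.5, 15.2 and 25.5 FPKM under DAPA (log2 fold change -1.39 ± 0.31, adjusted p = 0.0162). In these 3 genes no DAPA sample reached the lowest Sham sample, and only Kdr lost its call on leaving out a sample (Sham replicate 3, adjusted p = 0.0554).

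The growth factor Vegfa, which cardiomyocytes make and endothelial cells respond to, read 142, 238 and 173 FPKM in Sham and 30.2, 62.4 and 34.2 FPKM under DAPA (log2 fold change -2.14 ± 0.31, adjusted p = 0.00384). Vegfa and the next gene were named after their values were seen. Plvap, a diaphragm protein of leaky and venous endothelium, was the member called higher, at 1.05, 5.82 and 1.19 FPKM in Sham and 37.4, 13.2 and 29.5 FPKM under DAPA (log2 fold change 3.03 ± 0.53, adjusted p = 0.00719). Eng, endoglin, stayed within 2-fold at -0.22 ± 0.32. Fabp4, a fatty acid binding protein of capillaries and adipocytes, fell from 4025, 5575 and 3923 FPKM to 703, 1072 and 549.8 FPKM (log2 fold change -2.58 ± 0.32, adjusted p = 0.0028). Of the adipocyte markers, Adipoq was listed at 0 FPKM in all Sham samples and at 0.803, 3.54 and 5.96 FPKM under DAPA, which was too low to be tested. Under the scaling to equal FPKM totals none of the 21 endothelial genes was lower and 2 were higher, their median then being 0.07 while the median gene stood at 1.00.

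The 13 mRNAs of the mitochondrial genome were all below Sham in every DAPA sample. By test 9 were lower, with a median log2 fold change of -2.13. The 4 most abundant, COX1, COX3, ATP6 and COX2, were not called by limma with a trended prior variance, whereas all 13 were lower with a constant prior variance or with voom on recovered reads. ND4, a complex I subunit, was at 4226, 4670.2 and 5738 FPKM in Sham and 1028, 1213 and 694 FPKM under DAPA (log2 fold change -2.34 ± 0.31, adjusted p = 0.00294). COX1, the catalytic subunit of complex IV, was at 225581, 227670.00 and 297545 FPKM in Sham and 56860.00, 68841 and 28782 FPKM under DAPA (log2 fold change -2.36 ± 0.86, adjusted p = 0.0767). DAPA replicate 3 was the lowest for all 13. The count of 9 fell to 5 without Sham replicate 1 and to 3 without Sham replicate 2, Sham replicate 3 or DAPA replicate 1, and rose to 13 without DAPA replicate 3. Without a filter on low values 2 were lower. With all genes scaled to equal FPKM totals 4 remained lower.

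Nuclear genes for the same respiratory chain were called higher about as often as all genes, and the DAPA samples differed. Of 35 tested complex I subunits 3 were higher (8.57%, against 8.74% of all genes), none lower and 16 within 2-fold (45.7% against 46.9%), with a median of -0.14. In DAPA replicate 3, 23 of the 35 lay below the lowest Sham sample and 8 above the highest. In replicate 2, 4 lay below and 16 above, and in replicate 1, 12 below and 11 above. Over all 13359 genes tested 4854 lay below and 4859 above in replicate 3. Ndufs1, the large iron-sulfur subunit of complex I, was at 23.8, 25.6 and 28.9 FPKM in Sham and 63.6, 66.9 and 46.9 FPKM under DAPA (log2 fold change 1.14 ± 0.18, adjusted p = 0.00531). The more abundant Ndufa13 was at 535, 693 and 779 FPKM in Sham and 438, 596 and 333 FPKM under DAPA and was not called (-0.58 ± 0.27, adjusted p = 0.15). Against the same Sham samples, 18 complex I subunits were lower in MI, where the median was -1.07. The count of 3 was 1 without Sham replicate 2, DAPA replicate 1 or DAPA replicate 2, and that of 16 was 8 without Sham replicate 1. Complexes II and III gave 1 of 14 higher (7.14%) and none lower, and ATP synthase gave 1 of 14 higher (7.14%) and none lower. Complex IV gave 2 of 16 higher (12.5%) and 1 lower (6.25%). Over all genes tested 8.74% were higher and 7.49% lower. Without Sham replicate 1, DAPA replicate 1 or DAPA replicate 2 no gene of complexes II, III or IV was higher, without Sham replicate 2 none of complex IV was, and without DAPA replicate 3 there were 3 in complexes II and III and 3 in complex IV. ATP synthase had 1 lower gene without Sham replicate 1 and 2 without DAPA replicate 2.

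Complex IV shows how far subunits of 1 enzyme could part. Cox5a was at 176, 205 and 256 FPKM in Sham and 486, 629 and 339 FPKM under DAPA (log2 fold change 1.16 ± 0.27, adjusted p = 0.0179). Cox8b, a heart and muscle isoform, was at 1361, 2775 and 2751 FPKM in Sham and 612, 1059.8 and 520.2 FPKM under DAPA (log2 fold change -1.65 ± 0.39, adjusted p = 0.0193). Cox5a rose and Cox8b fell without overlap of the groups, though the call of Cox5a was lost without any 1 of 4 samples and that of Cox8b without any 1 of 3 samples (adjusted p up to 0.0621 and 0.0715). The ubiquitous subunit Cox4i1 stayed within 2-fold (0.05 ± 0.31). Ckmt2, the mitochondrial creatine kinase that passes energy to the sarcomere, was also lower, at 385, 604 and 609 FPKM in Sham and 251, 336 and 157 FPKM under DAPA (log2 fold change -1.13 ± 0.32, adjusted p = 0.0346). This call was lost on leaving out any of 4 samples (adjusted p up to 0.105), and with libraries scaled to equal FPKM totals the value was 0.053.

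**Figure D3:**
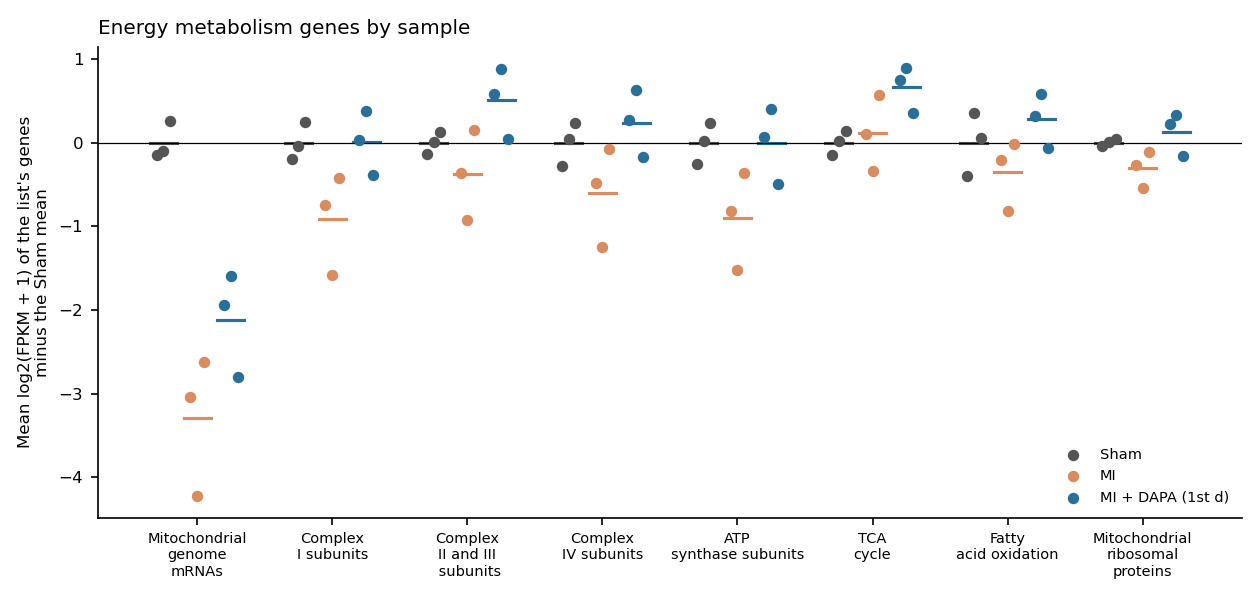
Mean log2(FPKM + 1) of the tested genes of each energy metabolism list in each sample, minus the mean of the 3 Sham samples; points are samples, short lines group means. Mitochondrial genome mRNAs lie more than 1 unit below Sham in all DAPA samples, while in the nuclear lists DAPA replicates 1 and 2 lie at or above the Sham mean and DAPA replicate 3 is the lowest of the 3.

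In each list of fuel metabolism more genes were called higher than lower, mostly by few genes. For fatty acid oxidation this did not hold under some choices of samples and scaling. Over all genes tested 8.74% were higher, 7.49% lower and 46.9% within 2-fold of Sham. In the TCA cycle all 17 tested genes had a positive log2 fold change with a median of 0.57, of which 2 (11.8%) were called higher and 8 (47.1%) lay within 2-fold. Pdha1, a subunit of pyruvate dehydrogenase, was at 16.1, 18.1 and 19.7 FPKM in Sham and 58.95, 54.9 and 47.6 FPKM under DAPA (log2 fold change 1.53 ± 0.16, adjusted p = 0.00182). The count of higher TCA genes rose to 7 without DAPA replicate 3 and to 5 without Sham replicate 3. Branched-chain amino acid and ketone catabolism had 4 of 21 higher, none lower and 13 within 2-fold (6 within 2-fold without Sham replicate 3 or DAPA replicate 3). Oxct1, the enzyme that commits ketone bodies to oxidation, was at 47.1, 41.7 and 52.2 FPKM in Sham and 164, 203 and 125 FPKM under DAPA (log2 fold change 1.76 ± 0.21, adjusted p = 0.00236), with every DAPA sample above every Sham sample.

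Fatty acid oxidation gave 4 of 30 higher (13.3%), 2 lower (6.67%), 8 within 2-fold (26.7%) and 16 in neither class. Without DAPA replicate 1 there were 0 higher and 1 lower, and without Sham replicate 1 there were 1 higher and 1 lower. Leaving out DAPA replicate 2 gave 2 higher and 3 lower. With the mitochondrial genome left out and the libraries rescaled, 1 was higher and 2 were lower. Slc22a5, the carnitine transporter, was the lower member with the smaller p, at 4.83, 5.63 and 5.54 FPKM in Sham and 2.17, 1.83 and 1.64 FPKM under DAPA (log2 fold change -1.14 ± 0.18, adjusted p = 0.00542). Lpl, which releases fatty acids from lipoproteins, was not called (-0.85 ± 0.39, adjusted p = 0.14). Glucose uptake and glycolysis had 6 of 20 higher and none lower. Hk2, the insulin-regulated hexokinase, was at 2.37, 1.40 and 0.815 FPKM in Sham and 7.64, 5.23 and 6.49 FPKM under DAPA (log2 fold change 1.59 ± 0.27, adjusted p = 0.0065), and the most abundant member Gapdh was not called (0.31 ± 0.30, adjusted p = 0.476).

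Antioxidant genes leaned upward, with 10 of 30 higher, none lower and 12 within 2-fold. Sod3, the extracellular superoxide dismutase, was at 35.5, 15.8 and 28.9 FPKM in Sham and 96.2, 115 and 162 FPKM under DAPA (log2 fold change 2.21 ± 0.32, adjusted p = 0.00381). Gpx3, the secreted glutathione peroxidase, was at 427, 219 and 294 FPKM in Sham and 1347, 1065 and 1157 FPKM under DAPA (log2 fold change 1.97 ± 0.28, adjusted p = 0.0035). The cytosolic enzyme Sod1 stayed within 2-fold at -0.19 ± 0.20.

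In several programmes more genes had an interval within 2-fold of Sham than the 46.9% of all genes tested. Of 35 proteasome genes tested 29 had an interval within 2-fold and none was called, with a median of -0.01 (Psmb4 -0.04 ± 0.18). Mitochondrial ribosomal proteins gave 59 of 73 within 2-fold and 1 higher, and cytosolic ribosomal proteins 50 of 74 within 2-fold and none called, although reads of these genes can be shared with their many pseudogenes. The DAPA samples were split in both lists. Of the 74 cytosolic genes, 46 lay above the highest Sham sample in DAPA replicate 1 and 60 below the lowest in replicate 3. Of the 73 mitochondrial genes, 40 and 46 lay above in replicates 1 and 2, and 34 below in replicate 3. Over all 13359 genes these were 4995 and 4702 above, and 4854 below. Apoptosis genes gave 11 of 18 within 2-fold (61.1%), nearer to the share of all genes than the other lists here. Only 1, Cycs, was higher (5.56%, against 8.74% of all genes), and 0 without DAPA replicate 1. Casp9, the initiator caspase of the mitochondrial pathway, was at 4.04, 4.87 and 3.63 FPKM in Sham and 3.66, 4.42 and 3.87 FPKM under DAPA (-0.05 ± 0.18). Its groups overlapped and its interval lay within 2-fold. In MI against the same Sham samples, 28 of 35 proteasome and 11 of 18 apoptosis genes lay within 2-fold. Cytosolic ribosomal proteins gave 55 of 74 there and mitochondrial ribosomal proteins 51 of 73, against 6017 of all 13485 genes. Nearness to Sham in these lists was therefore not particular to the DAPA samples.

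A panel of genes for which the study lists qPCR primers was looked up in the sequencing data. It held 12 genes, of which 5 of 11 tested were higher than Sham and 3 were within 2-fold. Besides Col1a1, Col3a1 and Nppb these were Sod2, mitochondrial superoxide dismutase (1.48 ± 0.23), and Cycs, cytochrome c, at 68.7, 77.2 and 83.3 FPKM in Sham and 210.3, 209 and 115 FPKM under DAPA (1.16 ± 0.26, adjusted p = 0.0153). The call of Cycs was lost without DAPA replicate 1 (adjusted p = 0.0586). The pore-forming apoptosis gene Bax was at 44.9, 54.5 and 39.9 FPKM in Sham and 30.3, 26.1 and 30.3 FPKM under DAPA. Every DAPA value of Bax lay below every Sham value, but the change of -0.66 ± 0.17 (adjusted p = 0.0242) was under 2-fold. Bak1 stayed within 2-fold (-0.13 ± 0.24), and Bcl2 was below the filter, at 0.418, 0.331 and 0.662 FPKM in Sham and 1.15, 0.726 and 1.72 FPKM under DAPA.

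**Figure D4:**
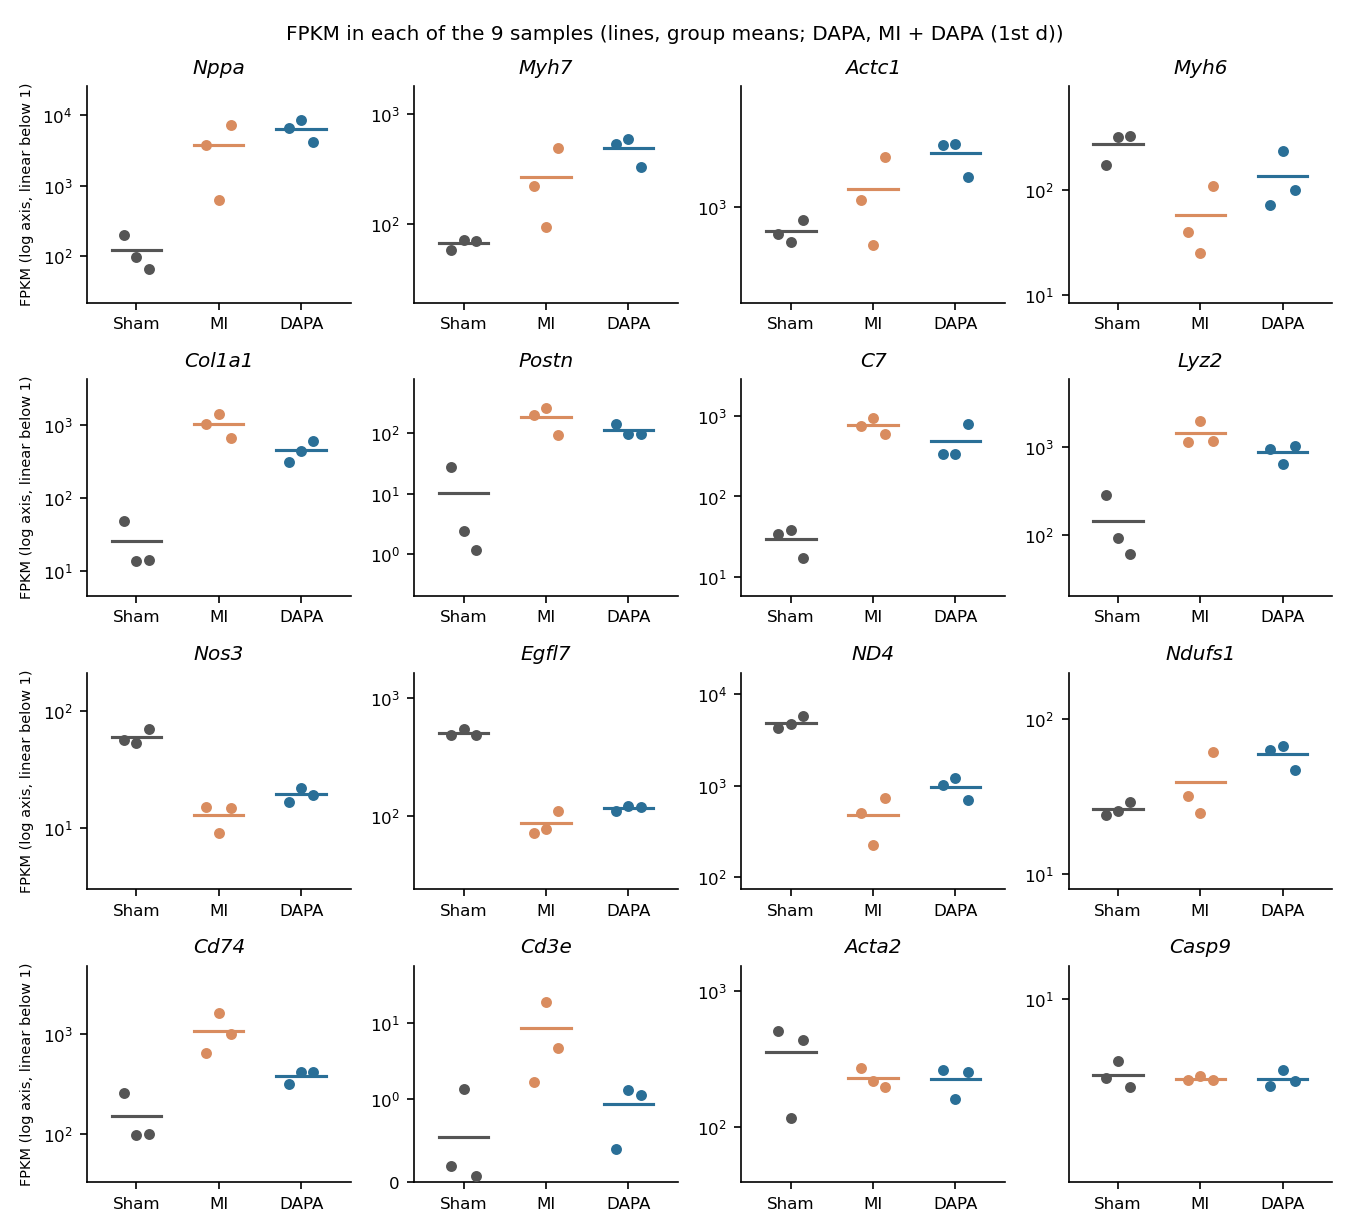
FPKM of 16 genes in each of the 9 samples on a log axis that is linear below 1, with each group's mean as a line; DAPA stands for MI + DAPA (1st d). Nppa, Myh7, Actc1, Col1a1, Postn, C7 and Lyz2 lie above Sham in all DAPA samples, Nos3, Egfl7 and ND4 below, and the groups overlap for Myh6, Cd3e, Acta2 and Casp9.

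The 12 largest rises among called genes that were well expressed and did not overlap between groups were in Nppa, Ccn5, Thbs4, Spp1, Col1a1, Ltbp2, Postn, Col8a1, Gpnmb, Serpina3n, Ankrd23 and Pi16, at log2 fold changes from 4.09 to 5.81. Of these Serpina3n, a secreted protease inhibitor of the acute phase, was at 0.708, 0.0277 and 0.437 FPKM in Sham and 27.6, 17.00 and 26.5 FPKM under DAPA (log2 fold change 4.15 ± 0.27, adjusted p = 0.00136). Pi16, a marker of adventitial fibroblasts, was at 38.2, 11.1 and 22.2 FPKM in Sham and 325, 302 and 543 FPKM under DAPA (log2 fold change 4.09 ± 0.43, adjusted p = 0.00194). Ltbp2, a matrix protein of elastic fibres, was at 8.69, 1.48 and 2.06 FPKM in Sham and 108, 60.8 and 73.04 FPKM under DAPA (log2 fold change 4.24 ± 0.49, adjusted p = 0.0023). Spp1, osteopontin, was the least stable of the 12, its call being lost without any 1 of 4 samples (adjusted p up to 0.0894).

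The 12 largest falls were mainly in short genes. They comprised 5 entries of the mitochondrial genome record, the microRNA loci Mir133a-2 and Mir3582, 3 other short or clone-named loci, and the protein-coding genes Rbp7 and Ifit1. Rbp7, a retinol-binding protein of capillary endothelium and fat, fell from 188, 469 and 186 FPKM to 25.6, 44.1 and 10.6 FPKM (log2 fold change -3.41 ± 0.54, adjusted p = 0.00512). The value of a microRNA locus counts reads over its hairpin and not the mature microRNA, and Mir133a-2 was at 34.3, 24.6 and 44.1 FPKM in Sham and 1.18, 5.44 and 1.07 FPKM under DAPA.

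Small lists and lists that moved with single samples complete the description. None of 9 tested neutrophil and mast cell genes was called by limma, 2 were lower at an unadjusted p under 0.05, and voom on recovered reads called 0. Hemoglobin and other erythroid genes had a median of -2.95 over 5 tested genes with 0 called by limma, 0 at an unadjusted p, 0 by voom and 1 lower without Sham replicate 1. Hbb, a β-globin, was at 69.1, 1558 and 179 FPKM in Sham and 2.57, 90.8 and 57.9 FPKM under DAPA, so Sham replicate 2 was far above the other Sham samples. Clock and immediate early genes gave 4 of 33 higher, but 1 without Sham replicate 3, DAPA replicate 1 or DAPA replicate 3 and 10 without DAPA replicate 2. Schwann and neuronal genes gave 2 of 10 higher, epicardial genes 0 of 5, and adipocyte genes 2 of 6 higher and 2 lower. Cell cycle genes gave 1 of 27 higher, Ccnd2, with 7 within 2-fold, 19 in neither class and a median of -0.31. Pcna, the replication clamp, was within 2-fold at -0.25 ± 0.15. In the ion channel, cardiac transcription factor, T cell, inflammasome, adipocyte and clock lists 1 gene each passed the filter through the DAPA samples alone. The lists together held 281 of the 2168 called genes.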

How the data were processed

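RNA from 9 rat hearts' tissue samples, 3 per group, was sequenced by the authors after poly-T capture of mRNA and random-hexamer priming, with a kit that was not stated to mark strand. The deposited table gave FPKM for 35843 genes, and 12588 of them read 0 in each of the 9 samples. The submitters' processing notes named HISAT2 2.0.5, StringTie 1.3.3b, featureCounts 1.5.0-p3 and DESeq2, without saying which values each made, and the genome build was not given in the sources used here. Whole reads were recovered from the steps of the FPKM values for 100% of 18896 genes seen in 4 or more libraries, within a tolerance of 0.02 reads.

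Genes with at least 1 FPKM in 3 samples of the 6 were tested. Values were taken as log2(FPKM + 1) and fitted with limma 3.58.1 in R 4.3.3 with a trended prior variance, using only the groups compared, and p-values were adjusted by the Benjamini-Hochberg method over all genes tested. A gene was called at an adjusted p under 0.05 and a change above 2-fold. Fold changes are on the log2(FPKM + 1) scale and understate those of low genes. "Within 2-fold" means that the 95% confidence interval lay inside that range. p-values measure the spread between samples. Python 3.11.15 with scipy 1.17.1 was used for the exact test of the mitochondrial share. The fit was tested on simulated data.

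Gene lists (49 lists, 1165 symbols, 1121 of them found) and members were chosen with earlier results of these data known, so list counts and medians describe and do not test. Genes were named by this rule: up to 3 called members per list with the smallest p and up to 2 members not called with the highest level, the 12 largest changes in each direction, the qPCR genes and the cell type markers. Acta1, Vegfa, Plvap, Irf7 and Mx1 were named after their values were seen. Promoters were matched by symbol to RefSeq windows (GRCr8), and bases lying in another transcript were left out. Alternatives covered the pseudocount, filter, scaling, test, replicate block and single samples left out. A few genes are not reported here.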

Additional observations from a re-analysis of the deposited data

Results flagged for a closer look

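Of the loci in the table that carry no gene name and so lie outside the comparison of named genes, 918 were tested in MI + DAPA (1st d) against Sham. Of these 24 were higher and 173 were lower, that is 21.5% called. Among the 12441 named genes tested 1144 were higher and 827 lower, that is 15.8% called. What these loci encode is not given in the table, and the difference between the shares was not tested.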

How the results depend on the processing

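The count of genes higher than Sham under DAPA ran from 714 (without MI + DAPA (1st d) replicate 1) to 1227 (without Sham replicate 1), that of genes lower from 705 to 1080, and that of genes within 2-fold from 5132 to 5995 when 1 sample was left out. For MI against Sham these ranges were 1147 to 1596 higher and 1009 to 1427 lower. The difference in the mitochondrial share of reads ranged from -40.9 to -33.6 percentage points. Libraries scaled to equal FPKM totals (TPM) gave 6641 higher, 152 lower and 1459 within 2-fold under DAPA, and 9191 higher and 195 lower in MI, with the median gene moved by 0.99 and 1.32 on the log2 scale. Without a fold threshold 1936 genes were higher and 1886 lower under DAPA, and 2626 and 2635 in MI. Without a filter 12058 genes lay within 2-fold, because genes at or near 0 entered. DAPA against MI gave 273 genes at an unadjusted p and 2 without MI replicate 1, against 0 otherwise. The remaining alternatives (pseudocount 0.1, a minimum of 10 reads, mitochondrial genes left out, median-ratio scaling, all 9 samples in 1 fit, constant prior variance, voom) kept these counts within 1.5 times. Of the 65 called genes named in the text, 56 kept their call under every alternative other than TPM. Ckmt2 reversed its sign under TPM, at 0.053, and the cause was not tested.

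Adding a block for the replicate number gave 1191 higher and 1011 lower genes under DAPA. With it 3 of 13 mitochondrial genome mRNAs were lower in place of 9, all 5 erythroid genes were lower in place of 0 (Hbb, -3.33, adjusted p = 0.0115), and Myh6 was called lower (-1.13, adjusted p = 0.0334). Whether the numbers pair the samples was not settled. The correlations of same-numbered deviations were 0.117, 0.202 and -0.0129, and those of differently numbered ones ran from -0.243 to 0.141. With 3 samples per group these values cannot exclude a pairing. At 3 samples per group the typical gene had an interval of ± 0.54 on the log2 scale, so changes smaller than this were often not detectable.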

Other observations

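Called genes were spread over all gene lengths. Genes were put into 5 bins of equal size by relative gene length, as recovered from the FPKM steps. From the shortest to the longest bin the median log2 fold change of DAPA against Sham was 0.00, 0.08, 0.06, 0.01 and -0.07. The share of genes called higher ran from 6.95% in the longest bin to 9.88% in bin 2, and the share called lower from 6.23% in the longest to 8.52% in the shortest.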
